A study of Mus musculus with 48 samples.

Results

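Replication licensing is the step that prepares origins of DNA replication before S phase. The genes described here are 10 that encode its factors, namely the subunits Mcm2, Mcm3, Mcm4, Mcm5, Mcm6 and Mcm7, the loading factors Cdc6 and Cdt1, and the activation factors Cdc45 and Mcm10. They were taken by name and matched from gene identifier to mouse symbol, and they make up 10 of 23862 gene identifiers in the files. All 10 were listed in every library.

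As background, the origin recognition complex binds origins and, with Cdc6 and Cdt1, loads the MCM2-7 ring onto DNA as an inactive double hexamer. The ring becomes the active replicative helicase when Cdc45 and the GINS complex join it, and Mcm10 is needed for that helicase to start unwinding. Each ring holds 1 copy of each of its 6 subunits, and several of these genes are known targets of E2F transcription factors.

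The samples were E14TG2a cells, an established mouse embryonic stem cell line, grown with serum, LIF and inhibitors of the kinases GSK3 and MEK. All 48 libraries came from cells given 1 µM flavopiridol, a kinase inhibitor that stops RNA polymerase II elongation, for 30, 60, 120 or 240 min. At each time polyadenylated RNA was sequenced from total extract, nucleus, cytosol and membrane, with 3 independently passaged replicates for each of the 16 groups. The membrane fraction was what detergent released after the cytosol had been removed, and drug-free cells at later times were not analysed here. The protocol text gives the last time as 180 min and the sample titles as 240 min, and the titles were followed.

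Each deposited value was a ratio to the 0 min level of the same fraction, so that 1 means no change from the start. Such a ratio carries no expression level, and levels cannot be compared between genes or fractions. RNA in a separated fraction changes by decay, by transport out of it and, in cytosol and membrane, by arrival of RNA from other fractions. These cannot be told apart here, so slopes and half-lives are of the net change. The 12 libraries of a fraction appeared to have been divided by the same 0 min value, since at least 726 genes had 1 identical quotient (to 6 decimals of its natural log) between any 2 libraries of different replicate number. Its error would then not be in the spread between replicates, and no test against 0 min was made. Of 7 stem cell markers 5 were listed in all libraries, and of 9 markers of other cell types none was, although 8 were listed in at least 1.

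The untranslated 3′ ends of these mRNAs are shown first, because transcription was blocked and the values follow the RNA that remained. The transcript strand of each 3′ UTR in GENCODE M21 (GRCm38) was searched for ATTTA, the core of AU-rich elements, for the longer TATTTAT, which contains it, and for TGTANATA, the motif of Pumilio proteins. In the lines below, capitals mark the match in a 30-base window, and the examples are the motif-bearing ends of the fast-falling Cdt1 and Cdc6 beside those of Mcm4 and Mcm2, which had shallow slopes in total RNA.
Cdt1 (chr8:122573005-122573034, plus strand): attgggccttcTGTAAATAtgtgaagtgtg
Mcm4 (chr16:15623915-15623944, minus strand): attaaatcttgTGTAAATAttacaataaat
Cdc6 (chr11:98921864-98921893, plus strand): agattgtgaataTATTTATtttcaagtttc
Mcm2 (chr6:88883817-88883846, minus strand): cattaaatgacTATTTATtcttctgccccc

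In these chosen examples the same word lay in a gene with a steep and in a gene with a shallow slope in total RNA. TATTTAT was also found in the 3′ UTRs of Cdc45 and Mcm5. Whether a word goes with the slope was not tested. The 3′ UTR of Mcm6 is 345 bases long and held none of the 3 words, and that of Mcm7, 136 bases long, held none either. Mcm5 had 4 matches to ATTTA in 1115 bases. Over 8520 protein-coding genes listed in all libraries, 66.4% of 3′ UTRs held ATTTA, 27.5% TATTTAT and 24.5% TGTANATA. A match is only a match of letters.

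The promoters were read for a feature that the genes share. RefSeq windows from 250 bases before to 50 after the start (GRCm38.p6) were in the table for 9 of the 10 genes, the exception being Mcm4. They were searched on both strands for the E2F-type words TTTCCCGC, TTTCGCGC, TTTGCCGC and TTTGGCGC, and matches may overlap each other. Mcm3, Mcm5, Mcm6, Mcm7, Cdc6 and Cdt1 held at least 1, that is 6 of 9 genes beside 2.60% of 27025 genes, or 6 of their 10 windows beside 2.26% of 32851 windows. The windows of Mcm5 and Mcm6 are printed because these subunits lay at the opposite ends of the time courses, and capitals mark pairs of overlapping words.
Mcm5 (chr8:75109330-75109389, plus strand): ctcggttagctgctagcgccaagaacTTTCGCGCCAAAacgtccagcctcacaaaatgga
Mcm6 (chr1:128359782-128359841, minus strand): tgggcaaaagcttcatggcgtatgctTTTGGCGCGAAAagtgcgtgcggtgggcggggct

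The 6 subunit mRNAs did not behave alike after the block. Mcm2, Mcm3, Mcm4, Mcm5 and Mcm7 lost less than Mcm6 in total RNA. Mcm6 lies on chr1:128331590-128359664 on the minus strand, and its product sits between Mcm2 and Mcm4 in the ring.

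In total RNA the ratios of Mcm6 were 0.369, 0.467 and 0.499 at 30 min in replicates 1 to 3. They were 0.147, 0.267 and 0.252 at 60 min and 0.0801, 0.171 and 0.109 at 120 min. At 240 min they were 0.0892, 0.0281 and 0.0388. All values at 240 min were below all values at 30 min. The slope of the log2 ratio over time was -0.87 ± 0.13 per h (SE, 12 libraries, limma, adjusted p = 5.7e-05), and 93.2% of the genes tested had a higher slope.

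The other subunits kept more of their start level in the same libraries. For Mcm2 (chr6:88883474-88898780) the total RNA ratios were 0.989, 0.944 and 0.944 at 30 min, 0.901, 0.829 and 0.856 at 60 min, 0.746, 0.723 and 0.767 at 120 min, and 0.838, 0.819 and 0.795 at 240 min. For Mcm5 (chr8:75109569-75128439) they were 0.712, 0.799 and 0.767 at 30 min, 0.754, 0.801 and 0.933 at 60 min, 0.737, 0.877 and 0.884 at 120 min, and 0.836, 0.88 and 0.629 at 240 min. The 30 and 240 min values of Mcm5 overlapped, and those of Mcm2 did not. Mean ratios at 240 min were 0.738 ± 0.012 for Mcm3 (chr1:20802968-20820312), 0.735 ± 0.022 for Mcm4 (chr16:15623897-15637400) and 0.627 ± 0.029 for Mcm7 (chr5:138164583-138172422), each as mean ± SD over 3 replicates.

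In total RNA 8 of the 10 genes had a falling slope at an adjusted p under 0.05, beside 56.9% of 12762 genes tested. Mcm3, Mcm4 and Mcm7 fell with slopes of -0.10, -0.09 and -0.19 per h, while Mcm2 at -0.06 ± 0.03 (adjusted p = 0.15, limma) and Mcm5 at -0.00 ± 0.04 (adjusted p = 0.93, limma) did not pass. Mcm2 did pass over 30, 60 and 120 min alone (-0.24, adjusted p = 0.0063, limma) and with libraries scaled to mitochondrially encoded mRNAs (-0.27, adjusted p = 0.046, limma). The median over all genes was -0.22 per h, so these 5 subunits lay above it and Mcm6 below. The count was 6 without replicate 2 and without replicate 3, in each case through Mcm3 and Mcm4. Centring each library on its median gene turned the slopes of Mcm2, Mcm3, Mcm4 and Mcm7 positive in total RNA, nucleus and cytosol, those of Mcm2, Mcm3, Mcm4 and Mcm5 also in membrane RNA, while Mcm6, Cdc6 and Cdt1 fell in all 4 fractions under that scaling too.

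**Figure D1:**
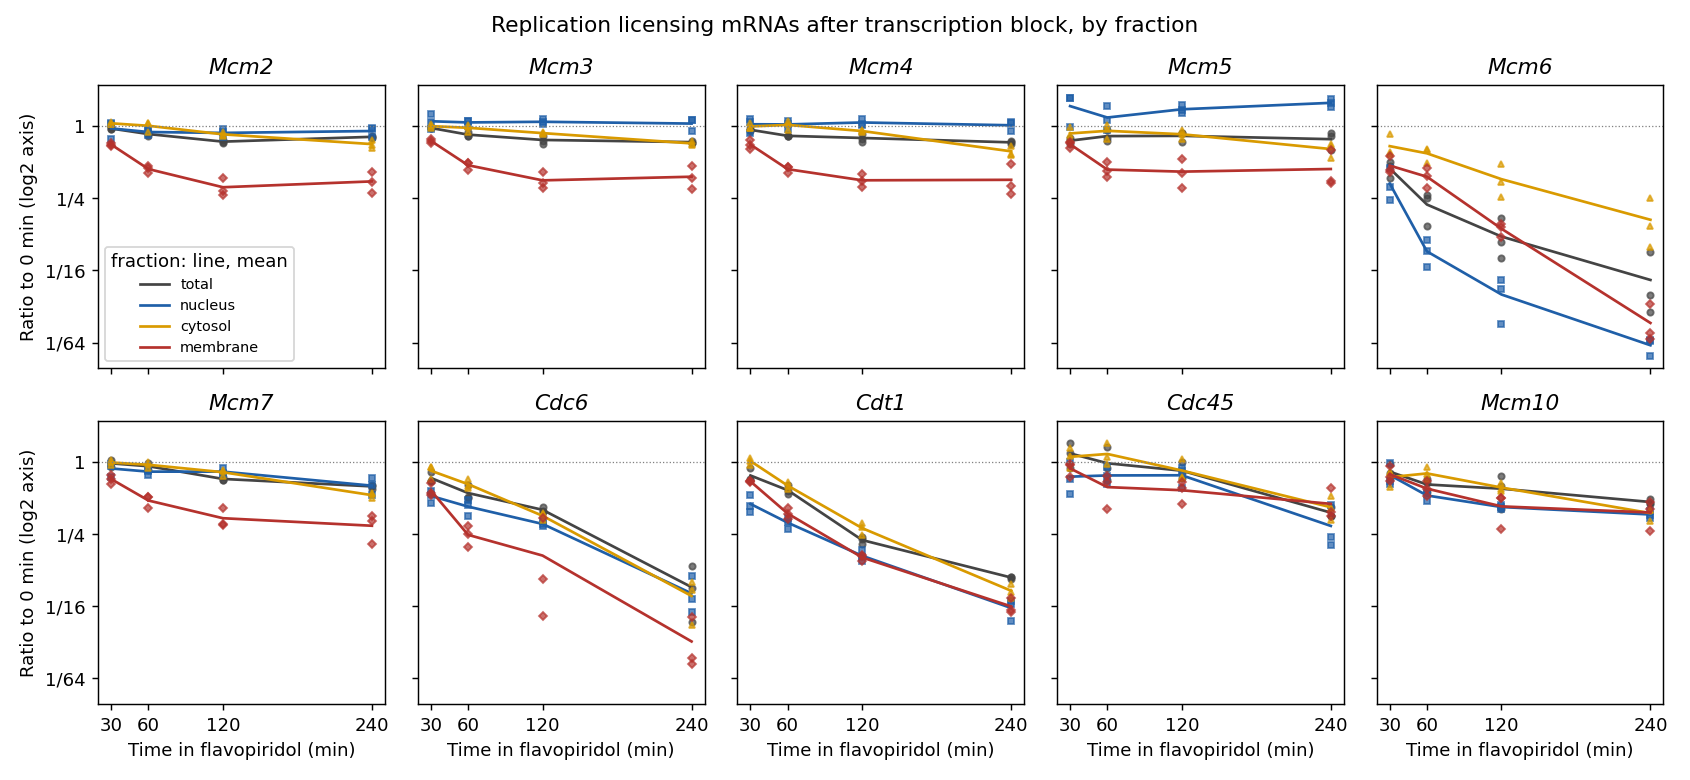
Ratio to 0 min (log2 axis) against time in flavopiridol (min) for the 10 genes, with 1 point per library and a line through the mean of 3 replicates in each fraction. Mcm6 falls in all 4 fractions and reaches 0.0148 in nuclear RNA at 240 min, while Mcm2, Mcm3 and Mcm4 stay near 1 there, Mcm5 lies mostly above 1, and these 4 are all below 1 in membrane RNA.

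In nuclear RNA the contrast within the ring was widest. The ratios of Mcm6 were 0.241, 0.447 and 0.311 at 30 min, 0.113, 0.0667 and 0.0907 at 60 min, 0.044, 0.0223 and 0.0518 at 120 min, and 0.0121, 0.0163 and 0.016 at 240 min. No nuclear value of Mcm6 at 60 min or later reached its lowest value at 30 min. The slope was -1.14 ± 0.16 per h (adjusted p = 3.7e-05, limma), with a higher slope in 96.6% of genes.

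Nuclear Mcm2, Mcm3, Mcm4 and Mcm5 showed no fall that passed the test. Their mean ratios at 240 min were 0.914 ± 0.086, 1.05 ± 0.12, 1.02 ± 0.099 and 1.57 ± 0.11 (SD, n = 3), and the slopes were -0.01, -0.02, -0.01 and 0.08 per h. For Mcm5 the nuclear ratios were 1.71, 1.73 and 0.984 at 30 min, 0.938, 1.13 and 1.49 at 60 min, 1.28, 1.38 and 1.5 at 120 min, and 1.46, 1.68 and 1.58 at 240 min. Of its 12 nuclear libraries 10 were above 1. Mcm7 fell by 0.13 ± 0.04 per h (adjusted p = 0.011, limma), a call lost without replicate 2 or 3 (slopes -0.13 and -0.08).

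In all, 6 of the 10 genes fell in nuclear RNA, beside 61.9% of 13343 genes, and the median slope of all genes was -0.30 per h. The median ratio over genes in the nuclear 30 min library of replicate 1 was 0.592, against 0.949 and 0.823 in the other two. The part of that library in the results was not tested beyond leaving it out, which left the direction and the call of each of the 10 nuclear slopes as they were.

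In cytosolic RNA all 10 genes fell, beside 67.1% of 11979 genes, with a median of -0.28 per h over all genes. Mcm6 had ratios of 0.582, 0.605 and 0.863 at 30 min, 0.65, 0.636 and 0.498 at 60 min, 0.255, 0.488 and 0.342 at 120 min, and 0.25, 0.099 and 0.148 at 240 min. Its slope was -0.62 ± 0.08 per h (adjusted p = 2.5e-05, limma), the shallowest of its 4 fractions.

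The remaining subunits had cytosolic slopes between -0.27 (Mcm7) and -0.14 (Mcm3 and Mcm5). Mcm2 had 1.04, 1.05 and 1.09 at 30 min, 1.07, 0.904 and 1.06 at 60 min, 0.893, 0.827 and 0.852 at 120 min, and 0.77, 0.699 and 0.663 at 240 min. All cytosolic values of these subunits at 240 min were below those at 30 min. The same held for the median ratio over all genes, which was 0.904 to 0.978 at 30 min and 0.462 to 0.486 at 240 min. The share of all genes with such a separation was not computed. Mcm5 was lost from the count without replicate 2, which left 9.

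In membrane RNA 9 of the 10 genes fell, beside 62.2% of 12408 genes, with a median of -0.26 per h over all genes. Mcm6 had ratios of 0.417, 0.564 and 0.429 at 30 min, 0.307, 0.447 and 0.383 at 60 min, 0.153, 0.145 and 0.12 at 120 min, and 0.0329, 0.0167 and 0.0187 at 240 min. The slope was -1.30 ± 0.08 per h (adjusted p = 3.1e-08, limma), and 98.5% of genes had a higher one. Mcm5 did not pass, at -0.15 ± 0.09 (adjusted p = 0.14, limma). It did pass without replicate 3 (-0.24, adjusted p = 0.046, limma), over 30, 60 and 120 min alone (-0.47, adjusted p = 0.046, limma) and with libraries scaled to mitochondrially encoded mRNAs (-0.49, adjusted p = 0.0026, limma).

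The shape of the other subunits' membrane course differed from that of Mcm6. Mcm2 had 0.698, 0.727 and 0.688 at 30 min, 0.47, 0.445 and 0.404 at 60 min, 0.374, 0.265 and 0.291 at 120 min, and 0.277, 0.345 and 0.418 at 240 min. Mcm3 had 0.732, 0.783 and 0.755 at 30 min, 0.499, 0.49 and 0.431 at 60 min, 0.419, 0.307 and 0.335 at 120 min, and 0.299, 0.369 and 0.471 at 240 min. Both dropped up to 120 min, and their values at 120 and 240 min overlapped. The number of genes called was 3 without replicate 1 (Mcm6, Cdc6 and Cdt1) and 6 without replicate 2, against 9 without replicate 3.

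**Figure D2:**
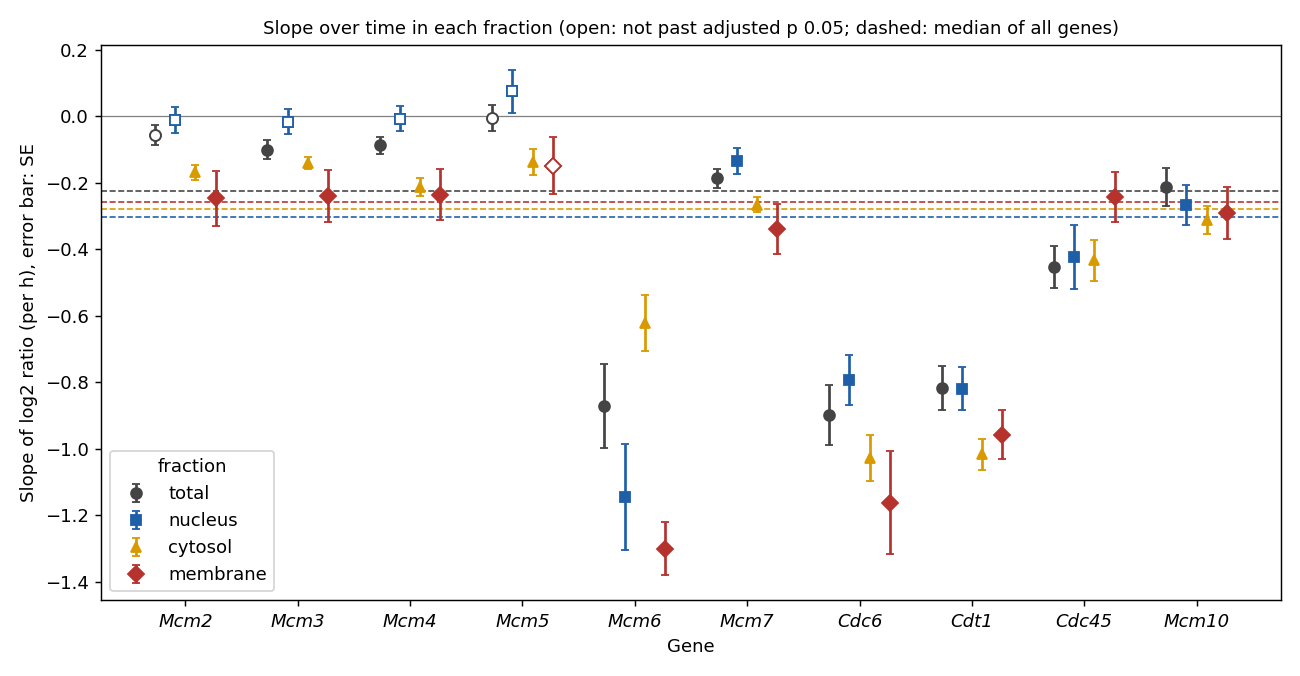
Slope of the log2 ratio per h (vertical axis) for each gene, with its SE over 12 libraries, by fraction. Open symbols did not pass an adjusted p of 0.05, and dashed lines give the median slope of all genes in each fraction. Mcm6, Cdc6 and Cdt1 lie between -1.30 and -0.62, well below the lines, and the remaining genes lie at -0.45 or above.

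Mcm6 was then set against the mean of Mcm2, Mcm3, Mcm4, Mcm5 and Mcm7 in the same library, a comparison chosen after its fall had been seen. In total RNA Mcm6 stood between 40.1% and 54.1% of that mean at 30 min and between 3.68% and 11.8% at 240 min. In nuclear RNA these shares ran from 24.9% to 37.1% and from 1.16% to 1.79%. In cytosolic RNA they ran from 60.1% to 87.6% and from 15.5% to 36.2%, and in membrane RNA from 59.8% to 74.2% and from 4.03% to 11.8%. The shares at 240 min lay below those at 30 min in each fraction.

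Relative to these 5 subunits Mcm6 fell by 0.79 ± 0.12 per h in total RNA, by 1.13 ± 0.16 in nuclear RNA, by 0.44 ± 0.08 in cytosolic RNA and by 1.06 ± 0.12 in membrane RNA. The adjusted p-values from limma were 1.2e-04, 3.6e-05, 7.3e-04 and 1.5e-05. The call held without any 1 replicate, but over 30, 60 and 120 min alone it was lost in cytosolic RNA (-0.52, adjusted p = 0.051, limma) and in membrane RNA (-0.56, adjusted p = 0.057, limma). On the same reference 46.3% of all genes fell in total RNA, 61.0% in nuclear RNA, 43.0% in cytosolic RNA and 26.6% in membrane RNA.

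**Figure D3:**
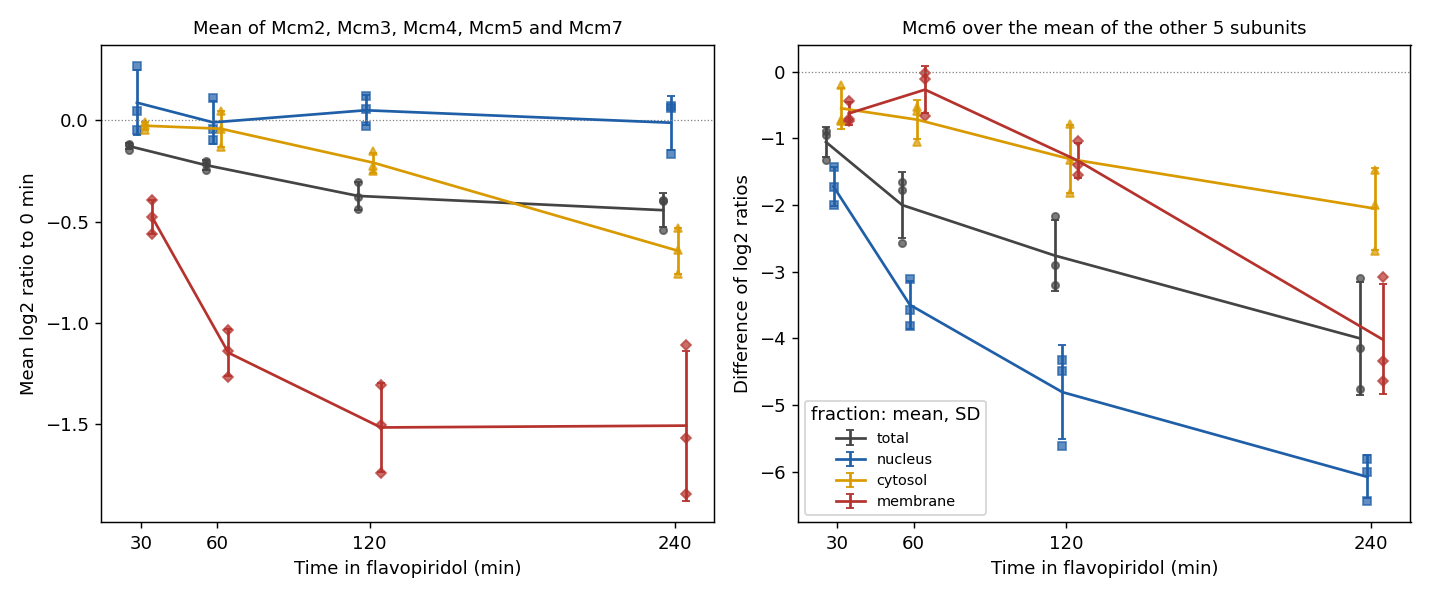
Left, mean log2 ratio to 0 min of Mcm2, Mcm3, Mcm4, Mcm5 and Mcm7 against time (min), and right, log2 ratio of Mcm6 minus that mean. Points are libraries, and lines and bars are the mean and SD of 3 replicates in each fraction. On the right the nuclear mean goes from -1.72 at 30 min to -6.08 at 240 min and the cytosolic mean from -0.55 to -2.05.

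Across the 48 libraries, each centred on its median gene, the log2 ratios of Mcm2, Mcm3, Mcm4, Mcm5 and Mcm7 moved together, with Pearson's r between 0.78 (Mcm5 and Mcm7) and 0.99 (Mcm3 and Mcm4). Mcm6 had r between -0.56 and -0.22 with them. These points share fractions, times and libraries, so r is a description. The genes most like the mean of Mcm2 to Mcm7, among 10694 listed in all libraries, were Top2a (r = 0.963), which encodes DNA topoisomerase II alpha, Wdr75 (0.948), a factor of ribosome assembly, Msh6 (0.945), a mismatch repair factor, Swap70 (0.939) and Ddx42 (0.934), an RNA helicase. That mean includes Mcm6, whose own r with it was 0.057, while the remaining subunits had r from 0.736 (Mcm5) to 0.918 (Mcm7). Likeness to the mean without Mcm6 was not computed.

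The loading factors Cdc6 and Cdt1 fell steeply in all 4 fractions. Cdt1 (chr8:122568015-122573554, plus strand) recruits the MCM2-7 ring to origins. In total RNA its ratios were 0.89, 0.722 and 0.707 at 30 min, 0.64, 0.539 and 0.569 at 60 min, 0.229, 0.205 and 0.235 at 120 min, and 0.11, 0.111 and 0.105 at 240 min. The replicates lay close together, and no 2 neighbouring times overlapped. Its slopes were -0.82 ± 0.07 in total RNA, -0.82 ± 0.06 in nuclear RNA, -1.02 ± 0.05 in cytosolic RNA and -0.96 ± 0.07 in membrane RNA.

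Cdt1 was already low in nuclear RNA at the first time. The nuclear ratios were 0.384, 0.431 and 0.527 at 30 min and 0.0652, 0.0691 and 0.0469 at 240 min. The cytosolic ratios were 1.08, 0.951 and 1.03 at 30 min and 0.0965, 0.0827 and 0.0731 at 240 min. At 30 min the 3 nuclear values thus lay below the 3 cytosolic ones, each set relative to the start of its own fraction.

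Cdc6 (chr11:98907801-98923940, plus strand) is an ATPase that joins the origin recognition complex on DNA to load the ring. In total RNA its ratios were 0.69, 0.83 and 0.693 at 30 min, 0.508, 0.641 and 0.506 at 60 min, 0.39, 0.384 and 0.425 at 120 min, and 0.136, 0.0889 and 0.0461 at 240 min. In membrane RNA they were 0.665, 0.527 and 0.549 at 30 min, 0.294, 0.251 and 0.196 at 60 min, 0.341, 0.0516 and 0.105 at 120 min, and 0.0512, 0.0207 and 0.0232 at 240 min. Replicate 1 was the highest of the 3 at every time there. The slopes were -0.90 ± 0.09, -0.79 ± 0.07, -1.03 ± 0.07 and -1.16 ± 0.16 per h in total RNA, nucleus, cytosol and membrane, with adjusted p-values (limma) of 2.4e-05 or lower.

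Cdc45 and Mcm10, which act when the loaded helicase is switched on, fell more slowly. Cdc45 (chr16:18780447-18811987, minus strand) had total RNA ratios of 1.45, 1.2 and 0.897 at 30 min, 0.711, 0.895 and 1.33 at 60 min, 0.742, 0.999 and 0.804 at 120 min, and 0.356, 0.355 and 0.424 at 240 min. Its values at 30, 60 and 120 min overlapped, and those at 240 min were below them all. The slopes were -0.45 ± 0.06 in total RNA, -0.42 ± 0.10 in nuclear RNA, -0.43 ± 0.06 in cytosolic RNA and -0.24 ± 0.08 in membrane RNA. The nuclear call was lost without replicate 3 (slope -0.34) and the membrane call without replicate 1 or 3 (-0.20 and -0.19). Over 30, 60 and 120 min alone Cdc45 passed in no fraction, with slopes of -0.29 in total RNA, 0.04 in nuclear RNA, -0.29 in cytosolic RNA and -0.36 in membrane RNA. With libraries centred on the median gene its nuclear slope was -0.11 and its membrane slope 0.018, neither of them called.

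Mcm10 (chr2:4989714-5012791, minus strand) had total RNA ratios of 0.719, 0.805 and 0.973 at 30 min, 0.675, 0.558 and 0.718 at 60 min, 0.409, 0.627 and 0.763 at 120 min, and 0.444, 0.459 and 0.49 at 240 min. Its slopes were -0.21 ± 0.06, -0.27 ± 0.06, -0.31 ± 0.04 and -0.29 ± 0.08 per h in total RNA, nucleus, cytosol and membrane. Between 45.5% and 54.3% of genes had a higher slope, so Mcm10 lay in the middle of all genes. Its membrane call was lost without replicate 1 (slope -0.23), and over 30, 60 and 120 min alone its calls were lost in total RNA (-0.31) and in cytosolic RNA (-0.21). With libraries centred on the median gene Mcm10 passed in no fraction, with slopes between -0.031 and 0.050.

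These 4 factors were compared with the mean of all 6 subunits in the same library. Cdc6 and Cdt1 fell relative to it in all 4 fractions, by 0.68 and 0.60 per h in total RNA, 0.59 and 0.61 in nuclear RNA, 0.77 and 0.76 in cytosolic RNA, and 0.74 and 0.54 in membrane RNA. Over 30, 60 and 120 min alone the Cdc6 call was lost in total RNA (-0.23), in nuclear RNA (-0.17) and in membrane RNA (-0.68). Cdc45 fell relative to the mean in total RNA (-0.23 ± 0.07, adjusted p = 0.012, limma) and in cytosolic RNA (-0.17 ± 0.06, adjusted p = 0.024, limma). Mcm10 did not pass in any fraction.

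The counts were thus 3 of 4 in total RNA beside 31.0% of all genes, 2 in nuclear RNA beside 38.2%, 3 in cytosolic RNA beside 33.7% and 2 in membrane RNA beside 16.5%. Cdc45 was lost in total RNA without replicate 1 or 2 (-0.18 and -0.24) and in cytosolic RNA without replicate 1 or 3 (-0.18 and -0.11). With Mcm6 left out of the reference, Cdc45 also passed in nuclear RNA (-0.40 ± 0.09) and Mcm10 in nuclear RNA (-0.25 ± 0.06) and the cytosol (-0.13 ± 0.04). Of these the Cdc45 call was lost without replicate 3 (-0.35) and over 30, 60 and 120 min alone (0.050), and the cytosolic Mcm10 call without replicate 2 (-0.082) and over 30, 60 and 120 min alone (-0.086).

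Steps between neighbouring times were tested next, and since they last 30, 60 and 120 min, calls in different steps do not give the timing of a loss. From 30 to 60 min none of the 10 genes fell in total RNA by limma, beside 2.32% of all genes, and 2 had an unadjusted p under 0.05. Mcm6 fell in nuclear RNA (-1.87 ± 0.38 on the log2 scale, adjusted p = 0.04, limma), beside 2.18% of genes, and Cdt1 in cytosolic RNA (-0.68 ± 0.14), beside 1.89%. In membrane RNA Mcm2, Mcm3 and Cdt1 fell (-0.68, -0.68 and -0.90), beside 12.7%.

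From 60 to 120 min Cdt1 fell in all 4 fractions, with changes of -1.38 in total, -0.92 in nuclear, -1.19 in cytosolic and -1.22 in membrane RNA. Mcm7 fell with it in total RNA (2 genes beside 26.5%), no other of the 10 did so in nuclear RNA (12.1%), Cdc6 did so in cytosolic RNA (2 genes beside 34.5%) and Mcm6 in membrane RNA (2 genes beside 25.6%). Replicates left out in turn took these counts to between 0 and 2, and the 30 to 60 min counts to 0 or 1.

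From 120 to 240 min Cdc45, Cdc6, Cdt1 and Mcm6 fell in total RNA, 4 genes beside 29.2%, and the same 4 fell in nuclear RNA, beside 34.3%. All 10 fell in cytosolic RNA beside 47.9%, with changes from -0.27 for Mcm2 to -2.31 for Cdc6. In membrane RNA Cdc6, Cdt1 and Mcm6 fell (-2.07, -1.37 and -2.68), beside 37.6%. With 1 replicate left out the counts lay between 2 and 4 in total RNA (2 without replicate 2), 1 and 3 in nuclear RNA (1 without replicate 3), 6 and 7 in cytosolic RNA (6 without replicate 2 or 3), and 2 and 4 in membrane RNA.

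The fractions were compared next, to ask whether the net change of the same mRNA differed in rate between nucleus, membrane and cytosol. Mcm2, Mcm3, Mcm4, Mcm5 and Mcm7 had a higher slope in nuclear RNA than in cytosolic RNA, by 0.16 ± 0.04, 0.12 ± 0.04, 0.21 ± 0.04, 0.21 ± 0.08 and 0.13 ± 0.04 per h (24 libraries, limma, adjusted p between 0.0022 and 0.047). That is 5 of 10 genes beside 12.3% of 11232 genes. Mcm6 was the 1 gene of the 10 with a lower nuclear slope, by 0.52 ± 0.18 per h (adjusted p = 0.044, limma), beside 8.3%.

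With any 1 replicate left out the count of 5 became 1 (Mcm4), although the differences stayed positive, between 0.14 and 0.18 for Mcm2, 0.11 and 0.14 for Mcm3, 0.15 and 0.28 for Mcm5, and 0.077 and 0.17 for Mcm7. The difference of Mcm6 did not pass without replicate 1 or 3 (-0.39 and -0.57) or without the low nuclear 30 min library (-0.49), and with 0.1 added to each ratio it became 0.02. The change of Mcm6 from 30 to 120 min, nucleus minus cytosol, was -2.18 ± 0.51 on the log2 scale (adjusted p = 0.01, limma), beside 6.62% of genes lower in nuclear RNA. This test was added after the values were seen, and it did not pass without replicate 2 or 3 (-1.26 and -2.64).

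Between membrane and cytosol the slope of Mcm6 differed, by -0.68 ± 0.11 per h (adjusted p = 6.2e-04, limma), beside 1.76% of 11086 genes with a lower membrane slope. It was lower in membrane RNA without any 1 replicate, but with 0.1 added to each ratio it was -0.18 and not called. The remaining 9 differences lay between -0.13 (Cdc6) and 0.19 (Cdc45), with SE between 0.08 and 0.17.

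The early course of the other subunits differed between these 2 fractions. From 30 to 120 min Mcm2 changed by 0.89 ± 0.19, Mcm3 by 0.92 ± 0.18, Mcm4 by 0.87 ± 0.22 and Mcm7 by 0.83 ± 0.23 log2 units further down in membrane RNA than in cytosolic RNA (differences of -0.89, -0.92, -0.87 and -0.83, limma, adjusted p = 0.014, 0.012, 0.028 and 0.039). These were 4 of 10 genes beside 4.56%. Mcm5 at -0.78 ± 0.31 and Mcm6 at -0.80 ± 0.44 did not pass. From 120 to 240 min no gene of the 10 differed by this test, and 3 had an unadjusted p under 0.05. The test was chosen after the courses were seen, and none of the 4 calls held with 1 replicate left out, although the differences stayed between -1.07 and -0.71.

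An exponential fit gave half-lives, each with the SD over the 3 replicate series. Mcm6 had 42.2 ± 11.9 min in total RNA, 17.1 ± 10.4 min in nuclear RNA, 101 ± 31.1 min in cytosolic RNA and 56.0 ± 5.05 min in membrane RNA. Cdt1 had 58.6 ± 6.24, 64.8 ± 13.7, 48.5 ± 3.46 and 40.2 ± 3.21 min in the same order, and Cdc6 84.5 ± 11.4, 93.7 ± 19.5, 68.8 ± 12.8 and 36.6 ± 24.2 min. For Mcm6 the order of the fractions depended on the fit. A straight line on the log2 ratio gave Mcm6 52.4 min in nuclear RNA, where replicate 1 of the exponential fit alone had 31.6 min, and 46.2 min in membrane RNA. The nuclear 17.1 min of Mcm6 is shorter than the first sampled time of 30 min, so its size is uncertain. Replicates 2 and 3 alone gave 11.1 and 19.3 min, and the fit with the level at 0 min fixed at 1 gave 18.6 min.

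Cdc45 had 143 ± 44.0 min in total RNA and Mcm10 260 ± 38.8 min. Half-lives of 240 min or less, the sampled range, were found for 4 of the 10 genes in total RNA, 5 in nuclear RNA, 6 in cytosolic RNA and 9 in membrane RNA. Only the 10 genes were fitted, so these counts have no share of all genes beside them and do not set the genes apart. For Mcm2, Mcm3, Mcm4 and Mcm5 those in total RNA, nucleus and cytosol lay beyond that range and are given only as such. The flat end of the membrane courses was poorly described by an exponential, and a straight line on the log2 ratio gave 5 genes in place of 9.

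The genes around this step were read from lists of replication genes, 61 in all. Of these 57 had an identifier in the files and 47 were listed in all libraries. In total RNA 36 of 48 tested fell and none rose, beside 56.9% and 3.39% of all genes, with a median slope of -0.24 per h beside -0.22. In nuclear RNA 37 of 48 fell and 1 rose, beside 61.9% and 3.32%. In cytosolic RNA 41 of 48 fell and 1 rose, beside 67.1% and 2.95%. In membrane RNA 38 of 47 fell and none rose, beside 62.2% and 4.09%. The median over the lists together was thus near that of all genes in total RNA, and single genes stood apart.

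The counts of the single lists in total RNA are to be read against the 56.9% of all genes that fell there. All 5 tested mRNAs of the origin recognition complex fell in each of the 4 fractions (shares of all genes as above), with slopes in total RNA from -0.51 ± 0.05 (Orc1) to -0.21 ± 0.05 (Orc6), the latter near the median of all genes. Among regulators of licensing, 4 of 5 fell in total RNA, from Fbxo5, which encodes the inhibitor Emi1 of the anaphase-promoting complex, at -1.41 ± 0.15, to Ddb1, an adaptor of the ubiquitin ligase that destroys Cdt1, at -0.04 ± 0.03 (adjusted p = 0.26, limma). Of origin firing and fork protection factors 6 of 7 fell, with Ticrr, which helps to load Cdc45, at -0.70 ± 0.10, and the fork protection factor Tipin at -0.04 ± 0.11 (adjusted p = 0.76, limma).

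The GINS complex, a partner of Cdc45 in the helicase, also held 1 subunit apart from the rest. All 4 subunits fell in every fraction, and Gins3 had slopes of -1.05 ± 0.06 in total RNA, -1.17 ± 0.09 in nuclear RNA, -1.11 ± 0.04 in cytosolic RNA and -1.26 ± 0.06 in membrane RNA, whereas Gins4 had -0.20 ± 0.02 in total RNA. Of the MCM paralogs Mcm9, which acts in DNA repair, fell by 0.64 ± 0.05 per h in total RNA. It was 1 of 2 tested paralogs to fall there.

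The machinery that follows licensing was mixed, with genes that held their ratio and genes that fell in each list. Of 10 DNA polymerase and primase genes 5 fell in total RNA beside 56.9% of all genes (median -0.10), from Pold3 at -0.41 ± 0.04 to Pola1, the catalytic subunit of polymerase alpha, at 0.07 ± 0.04, which rose in nuclear RNA by 0.20 ± 0.05. Of 9 clamp, clamp loader and lagging strand genes 7 fell (median -0.24), with Rpa1 at -0.43 ± 0.16 and Rpa3 at 0.06 ± 0.07, subunits of the same single-strand binding protein, and Rpa3 rose in cytosolic RNA by 0.12 ± 0.03. Rpa1 was shallower elsewhere, at -0.15 ± 0.07 in nuclear RNA (adjusted p = 0.069, limma), -0.17 ± 0.06 in cytosolic RNA and -0.33 ± 0.10 in membrane RNA. Of 6 genes for deoxynucleotide synthesis 4 fell (median -0.14), from Rrm2, the small subunit of ribonucleotide reductase, at -0.35 ± 0.03, to Dut at -0.00 ± 0.05.

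**Figure D4:**
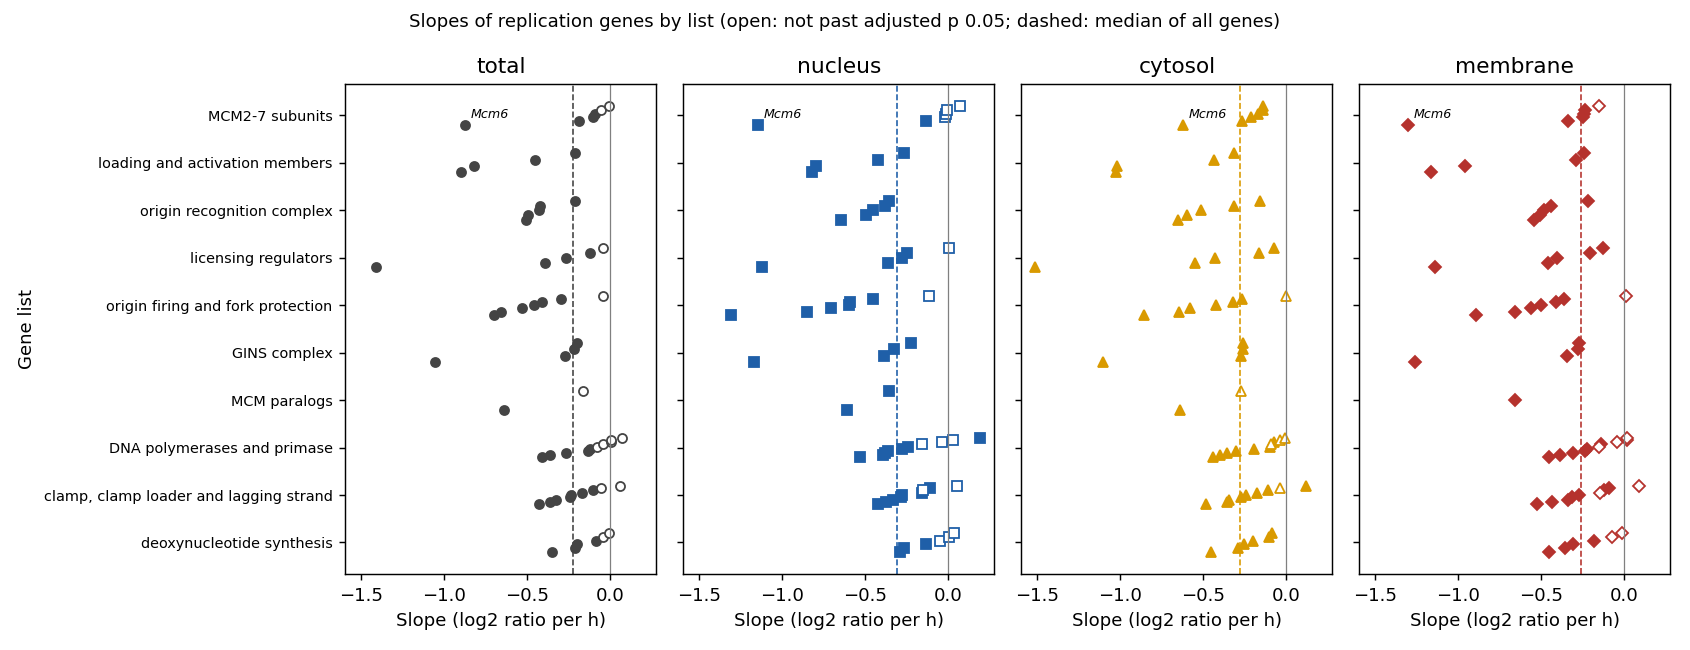
Slope of the log2 ratio per h (horizontal axis) for each gene of the replication lists (vertical axis) in 4 panels, 1 for each fraction. Filled symbols passed an adjusted p of 0.05, open symbols did not, and dashed lines give the median of all genes. In the top row Mcm6 lies apart from the other 5 subunits, from -0.62 in cytosolic RNA to -1.30 in membrane RNA.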

How the data were processed

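Polyadenylated RNA of 48 libraries was analysed. The authors used STAR 2.7.6 and RSEM 1.3.3 on mm10 (submitters' processing notes and methods), set library sizes by genes whose half-lives exceed 14 h, and divided each gene by its level at 0 min. What was deposited is thus a ratio, under a heading that names normalized read counts. No value is 0, and a gene at 0 is unlisted. The depth is unknown, so no counting error is given. The scaling assumes that the reference genes did not decay. An error in it would shift all log2 slopes of a fraction by the same amount, so the sign and call of slow slopes depend on it most.

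Groups, times and replicate numbers came from the titles. Log2 ratios, with no pseudocount, entered linear models in limma 3.58.1 (R 4.3.3, eBayes with trend, two-sided). Genes had to be present in the 12 libraries of a fraction, or the 24 of 2 fractions, with time in h or as a factor. P-values were Benjamini-Hochberg adjusted over all genes tested, at 0.05. For slopes relative to subunits, their mean log2 ratio in a library was subtracted from every gene. Half-lives were ln(2)/k from an exponential fitted by least squares in Python 3.11.15 with scipy 1.17.1. The fits were tested on simulated data.

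The genes and lists were chosen with earlier results of these data known. Named in addition were, per replication list, the genes with the steepest and the least steep slope in total RNA among those listed in all 48 libraries, and the 5 genes with the highest Pearson's r with the mean of Mcm2 to Mcm7. A comparison with the mean of 5 subunits and the step differences between fractions were added after seeing the data. From the replication lists 4 genes were not analysed here. Alternatives were a pseudocount of 0.1, other filters on listed genes, limma without trend, libraries centred on the median gene or scaled to mitochondrially encoded mRNAs, a replicate block, each replicate left out, the nuclear 30 min library of replicate 1 left out, 30 to 120 min only, and 180 min as the last time. For half-lives a straight line on the log2 ratio was also fitted, as was an exponential with the level at 0 min fixed at 1.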

Additional observations from a re-analysis of the deposited data

Results flagged for a closer look

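The following differences between fractions passed a test of the difference itself (limma, adjusted over all genes), and no cause was tested. The slope was higher in nuclear RNA than in cytosolic RNA by 0.16 per h for Mcm2, 0.12 for Mcm3, 0.21 for Mcm4, 0.21 for Mcm5 and 0.13 for Mcm7. For Mcm6 it was -0.52 per h, nucleus minus cytosol, and -0.68 per h, membrane minus cytosol. The change from 30 to 120 min, membrane minus cytosol, was -0.89 for Mcm2, -0.92 for Mcm3, -0.87 for Mcm4 and -0.83 for Mcm7 on the log2 scale. Nucleus minus cytosol, the same change was -2.18 for Mcm6. With any 1 replicate left out, only 1 of the higher nuclear slopes (Mcm4) and 0 of the membrane changes from 30 to 120 min were still called. With a pseudocount of 0.1 none of the differences of Mcm6 was called. Each group held 3 replicates, too few for a test of single samples standing apart.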

How the results depend on the processing

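In direction and call, the falling slopes of Mcm6, Cdc6 and Cdt1 within a fraction were the results least sensitive to the processing. Their half-lives moved with it, as given above and below. The causes of the changes below were not tested, except that fewer samples enter where libraries are left out. Shares of all genes called under each alternative are not given, so the counts below are not results about these genes in particular. Depth is unknown, and the near-absent ratios of Mcm6 and Cdc6 at 240 min carry an unmeasured counting error.

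Centring puts the median gene of each library at no change, so falls and rises are then relative to that gene. With libraries centred on the median gene, 4 of the 10 genes fell and 4 rose in total RNA, 3 fell and 5 rose in nuclear RNA, 4 fell and 4 rose in cytosolic RNA, and 3 fell in membrane RNA. The slopes then became, in total RNA, 0.17 for Mcm2, 0.13 for Mcm3, 0.14 for Mcm4, 0.22 for Mcm5, 0.042 for Mcm7 and 0.017 for Mcm10, and in nuclear RNA 0.31 for Mcm2, 0.30 for Mcm3, 0.31 for Mcm4, 0.18 for Mcm7 and 0.050 for Mcm10. In cytosolic RNA they became 0.11 for Mcm2, 0.14 for Mcm3, 0.069 for Mcm4, 0.14 for Mcm5 and 0.016 for Mcm7, and in membrane RNA 0.015 for Mcm2, 0.023 for Mcm3, 0.026 for Mcm4, 0.11 for Mcm5 and 0.018 for Cdc45. Membrane minus cytosol, Mcm10 was at -6.3e-05. Step counts from 60 to 120 min became 1 in total RNA, 0 in nuclear RNA and 1 in cytosolic RNA, those from 30 to 60 min 0 in cytosolic RNA and 1 in membrane RNA, and that from 120 to 240 min 2 in cytosolic RNA. Half-lives within 240 min became 3 in each of nucleus, cytosol and membrane. In nuclear RNA the half-life of Cdc6 went from 93.7 to 167 min and that of Cdt1 from 64.8 to 116 min. For Mcm6 it went from 42.2 to 73.8 min in total RNA and from 101 to 195 min in cytosolic RNA. Its nuclear half-life, at 23.6 min, stayed within the SD over replicates.

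With libraries scaled to mitochondrially encoded mRNAs, 3 genes fell in nuclear RNA and 3 in cytosolic RNA. The nuclear slopes of Mcm2, Mcm3, Mcm4 and Mcm7 became 0.19, 0.19, 0.20 and 0.071, and the cytosolic slopes of Mcm3 and Mcm5 0.015 and 0.016. Membrane minus cytosol, Cdt1, Cdc45 and Mcm10 were at -0.27, -0.14 and -0.31, and 4 genes were lower. None was higher or lower in nuclear RNA than in cytosolic RNA (0 and 0), and 9 were lower in membrane RNA from 30 to 120 min. Step counts from 30 to 60 min were 0 in nuclear RNA, 9 in cytosolic RNA and 10 in membrane RNA, from 60 to 120 min 0 in total RNA, 0 in nuclear RNA, 0 in cytosolic RNA and 6 in membrane RNA, and from 120 to 240 min 0 in nuclear RNA and 2 in cytosolic RNA. Half-lives within 240 min were 9 in total RNA, 3 in nuclear RNA and 3 in cytosolic RNA.

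Over 30, 60 and 120 min alone, 6 genes fell in cytosolic RNA, the counts below the mean of Mcm2 to Mcm7 were 1 in total RNA, 1 in nuclear RNA and 1 in membrane RNA, 0 genes were higher in nuclear RNA than in cytosolic RNA and 4 lower in membrane RNA. Slopes became 0.075 for Mcm5 in total RNA, and 0.040 for Mcm4 and 0.037 for Cdc45 in nuclear RNA. Relative to the 6 subunits Cdc45 was at 0.053 in total RNA and 0.37 in nuclear RNA and Mcm10 at 0.00087 in cytosolic RNA. Relative to 5 subunits Cdc45 was at 0.050 in nuclear RNA and 0.28 in membrane RNA and Mcm10 at 0.036 there. Nucleus minus cytosol, Mcm10 was at -0.33, and membrane minus cytosol Cdt1, Cdc45 and Mcm10 were at -0.15, -0.077 and -0.40. With 180 min as the last time, 3 genes were higher in nuclear RNA, Mcm5 in total RNA was at 0.0029, Mcm10 membrane minus cytosol at -0.017, and Cdc45 relative to 5 subunits in membrane RNA at 0.030.

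With a pseudocount of 0.1, Mcm6 nucleus minus cytosol was at 0.017, Cdc6 membrane minus cytosol at 0.090 and Mcm10 relative to the subunits in total RNA at -0.038. Counts were then 0 genes lower in nuclear RNA than in cytosolic RNA, 0 lower in membrane RNA, 0 with a lower nuclear change from 30 to 120 min, 4 below the subunits in nuclear RNA, and from 30 to 60 min 1 in total RNA and 5 in membrane RNA. With genes listed in at least 9 of 12 libraries, 0 genes fell from 30 to 60 min in nuclear RNA, 0 in cytosolic RNA and 1 in membrane RNA, and 0 were lower in nuclear RNA than in cytosolic RNA. Only genes listed in all 48 libraries, or limma without trend, gave 2 genes lower from 60 to 120 min in nuclear RNA. Without the nuclear 30 min library of replicate 1, 2 nuclear genes fell from 30 to 60 min and 2 from 60 to 120 min, 0 were lower in nuclear RNA than in cytosolic RNA, 2 had a lower nuclear change from 30 to 120 min, and Cdc45 nucleus minus cytosol was at -0.044. A straight line on the log2 ratio gave 5 half-lives within 240 min in membrane RNA.

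Whether replicate numbers pair the samples was not settled, and the main models held no term for them. Correlations of same-numbered deviations ran from -0.06 to 0.19. In total RNA, nucleus, cytosol and membrane 5, 4, 10 and 8 of 12 libraries correlated best with their own number. Mean correlations of same-numbered libraries were 0.034, -0.007, 0.029 and 0.024 in that order. Those of other numbers were -0.017, 0.004, -0.015 and -0.012. With the replicate block, 0 genes fell from 30 to 60 min in nuclear RNA, 0 in cytosolic RNA and 1 in membrane RNA, 0 from 60 to 120 min in nuclear RNA, and 0 were lower in nuclear RNA than in cytosolic RNA. The block also ended the calls of Mcm5 (adjusted p = 0.055, limma) and Mcm6 (0.058) nucleus minus cytosol and that of Mcm7 membrane minus cytosol from 30 to 120 min (0.0505), and Mcm10 relative to 5 subunits in total RNA passed with it (-0.13, adjusted p = 0.018, limma).

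With 1 replicate left out in turn, step counts from 30 to 60 min ran from 0 to 1 in nuclear RNA and were 0 in cytosolic RNA and 0 in membrane RNA, those from 60 to 120 min ran from 0 to 1 in total RNA, 1 to 2 in cytosolic RNA and 0 to 2 in membrane RNA and were 0 in nuclear RNA, and those from 120 to 240 min ran from 2 to 4 in total RNA, 1 to 3 in nuclear RNA and 6 to 7 in cytosolic RNA. Falling slopes in membrane RNA ran from 3 to 9, genes lower in nuclear RNA than in cytosolic RNA from 0 to 1, and 1 gene was higher. Genes with a lower change from 30 to 120 min than in cytosolic RNA ran from 0 to 1 in nuclear RNA and were 0 in membrane RNA. Slopes ran from -0.036 to 0.051 for Mcm5 in total RNA and, in nuclear RNA, from -0.047 to 0.031 for Mcm2, -0.046 to 0.018 for Mcm3 and -0.041 to 0.032 for Mcm4. Mcm10 relative to the 6 subunits in total RNA ran from -0.021 to 0.040, and Cdc45 relative to 5 subunits in membrane RNA from -0.11 to 0.11. Cdc45 nucleus minus cytosol ran from -0.073 to 0.11, and membrane minus cytosol Mcm4 ran from -0.13 to 0.043, Mcm5 from -0.13 to 0.073, Cdt1 from -0.017 to 0.11 and Mcm10 from -0.060 to 0.14.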
